A study of Mus musculus with 10 samples.

Results

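CD45-positive cells sorted from tumors were compared with CD45-positive cells sorted from spleens, in 4 libraries against 3, which made 7 of the 10 RNA-seq libraries of the series. The libraries were chosen by the tissue and the CD45 gate in their labels. All were from wild-type female C3H/HeN mice that carried tumors of SCC7, a mouse squamous carcinoma line used to model head and neck squamous cell carcinoma. Both groups are labelled EPC, an abbreviation that the labels do not spell out, and were isolated by fluorescence-activated cell sorting. The remaining 3 libraries, splenic CD45-negative cells from the same tumor model, entered no test of the main comparison and give a reference level in the plots and an alternative fit over all 10 libraries. The sources used here do not give the surface markers other than CD45, the age of the mice, the time after tumor injection or any pooling of animals. The labels do not tie replicates to separate animals, so the p-values describe the spread among libraries, which could be technical.

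CD45, encoded by Ptprc, is a phosphatase on the surface of white blood cells and early blood progenitors. In mice with a tumor or with anaemia the spleen makes red cells, whose precursors depend on the erythropoietin receptor and on the transcription factors GATA1 and KLF1 and lose CD45 as they fill with haemoglobin. Monocytes that enter a tumor turn into macrophages, which take up lipid and debris, secrete chemokines and can deplete arginine through arginase.

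Levels are in FPKM, fragments per kilobase of transcript scaled to a fixed number of mapped fragments, summed over the RefSeq transcript models of a gene. Values of a group are listed in the order of its replicate numbers. Depth was about 18200000 to 21100000 fragments per library, estimated roughly from the step size of the lowest values, and 9828 to 10945 genes reached 1 FPKM. Globin genes held 42.6%, 29.6% and 52.4% of the summed FPKM in the splenic libraries and 10.5%, 1.89%, 1.82% and 1.87% in the tumor libraries. Ptprc (chromosome 1 of GRCm38.p6, 138062859 to 138175756) was at 265, 39.2 and 153 FPKM in spleen and at 59.4, 90.1, 91.2 and 92.5 FPKM in tumor, and the groups overlapped. Its log2 change was -0.51 ± 0.58 (SE, adjusted p = 0.463).

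A pair of libraries stood apart from their groups. Splenic replicate 2 had the lowest Ptprc level of its group and correlated with the others at Pearson r = 0.8867 and 0.9172 across genes, against 0.977 between replicates 1 and 3. Tumor replicate 1 correlated with the other tumor libraries at 0.9816 to 0.9835 and held the highest levels of globin and neutrophil transcripts among them. Tumor replicates 2 to 4 correlated at 0.9976 to 0.9986, and replicates 2 and 3 differed little more than counting noise would give (median squared difference 1.64 times the Poisson value, against 30.4 to 32.4 times for pairs with tumor replicate 1). They were kept as separate samples, and counts are also given with tumor replicates 2 to 4 averaged into 1 sample where that moves the larger count of a list by more than 1.5 times. Those averages were added after the data had been seen.

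Tumor CD45-positive cells held high levels of macrophage, chemokine, lysosomal, glycolytic and hypoxia-response transcripts. Splenic CD45-positive cells held high levels of red cell, neutrophil granule, eosinophil, B cell and cell division transcripts. Most red cell membrane, eosinophil and B cell transcripts lay near 0 in tumor libraries, as did most granule transcripts in tumor replicates 2 to 4. Cell division genes were lower in tumor but had median levels of 30.7 to 31.8 FPKM in its libraries, and globins remained abundant. A gene was tested where 3 or more of the 7 libraries reached 1 FPKM. Of 11463 such genes, 4327 (37.7%) were higher in tumor and 2986 (26.0%) lower at an adjusted p below 0.05, so that 63.8% were called. The median log2 change of all tested genes was 0.20. Every tumor library lay on the same side of every splenic library for 7624 genes (66.5%), above in 4404 (38.4%) and below in 3220 (28.1%). Changes of more than 3 on the log2 scale were called for 519 genes upward, and changes below -3 for 336 genes downward.

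The balance of calls moved with the scaling, and the globin shares of the groups differed; the part of globins in that move was not tested. Higher genes made up 59.2% of calls in the deposited values and 41.1% (2981 higher and 4271 lower, median log2 -0.20) when each library was brought to a common sum over the genes other than globins. A common sum over all genes gave 70.3% (4664 higher and 1975 lower, median 0.44). List medians below stand beside the median of 0.20 for all tested genes, and a list's count beside the shares of all genes called. With tumor replicates 2 to 4 averaged as 1, 2904 of the 11463 tested genes were higher and 1865 lower. Without splenic replicate 2, 4993 were higher and 3410 lower. A list's counts under those settings stand beside these, not beside the shares of the main fit. Of the tested genes, 892 were below 1 FPKM in every splenic library and 446 in every tumor library. Such genes passed the filter through 1 group and could be called in 1 direction alone.

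**Figure D1:**
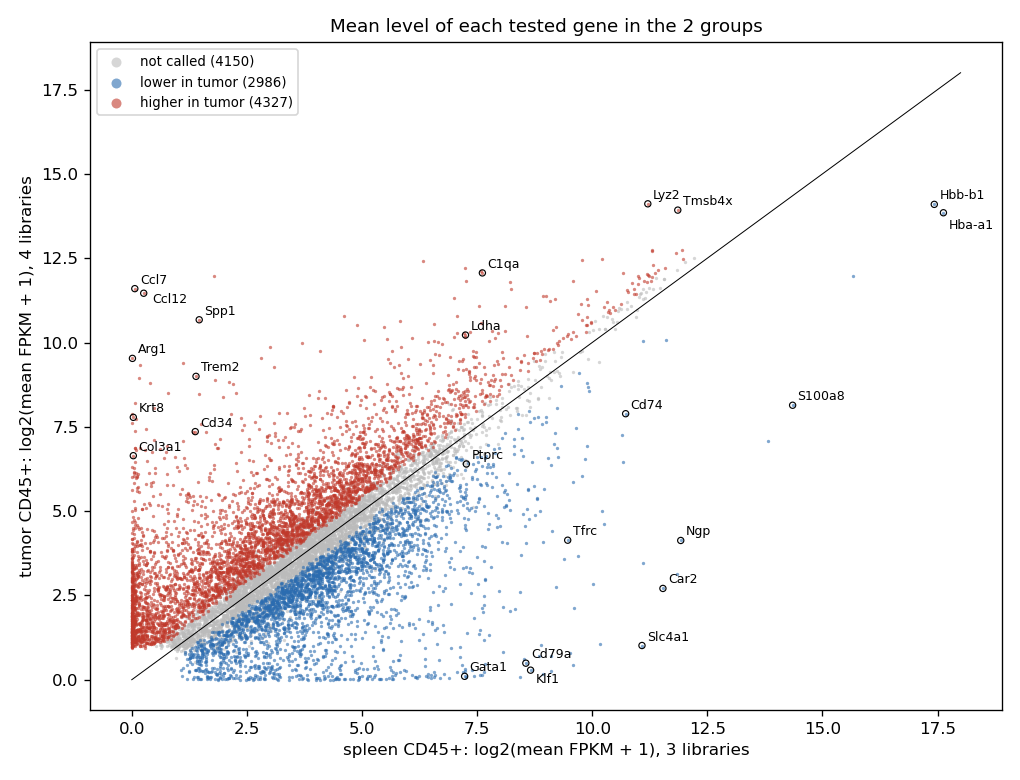
Mean level of each of the 11463 tested genes in the 3 splenic CD45-positive libraries (x axis) and the 4 tumor CD45-positive libraries (y axis), both as log2(mean FPKM + 1), with the line of equal level. Red points were called higher in tumor (4327), blue points lower (2986) and grey points neither; globins and red cell genes lie far below the line at right, and chemokines, Arg1 and Spp1 at upper left.

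Genes that define red cell precursors lay at or near 0 in the tumor libraries, although these carry the same EPC label as the splenic ones. Gata1, the transcription factor that directs red cell formation (chromosome X, 7959260 to 7976663), was at 114, 223 and 109 FPKM in spleen and at 0.27, 0, 0 and 0.02 FPKM in tumor. All splenic libraries were above all tumor libraries, with a log2 change of -7.05 ± 0.27 (SE, adjusted p = 6.53e-07 by limma). Klf1, its partner at the globin genes (chromosome 8, 84901982 to 84905291), was at 271, 613 and 329 FPKM against 0.45, 0.18, 0.15 and 0.09 FPKM (log2 -8.30 ± 0.28). Epor, the erythropoietin receptor, was at 64.9, 107 and 73.7 FPKM against 0.55, 0.23, 0.27 and 0.22 FPKM (log2 -5.95 ± 0.21). Of 17 tested erythroid regulators 16 fell and none rose, where 26.0% of all tested genes fell and 37.7% rose. Their median log2 change was -4.69, and 7 of the 17 passed the filter through spleen alone. Tal1 (log2 -6.44), Nfe2 (-6.36) and Gfi1b (-5.46) were among those that fell, and the signal transducer Stat5a was not called (-0.26, adjusted p = 0.183). With trimmed-mean scaling, or with globins left out of a common sum, all 17 fell, Stat5a among them. With a common sum over all genes 13 fell.

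Genes of the red cell membrane and of late red cell maturation fell as well. Slc4a1, the anion exchanger band 3 (chromosome 11, 102348820 to 102365281), was at 2367, 1966 and 2161 FPKM in spleen and at 3.25, 0.40, 0.25 and 0.20 FPKM in tumor, the largest fall of all tested genes (log2 -10.29 ± 0.43, adjusted p = 1.05e-06). Without tumor replicate 1 Ngp, a neutrophil gene, fell further (-11.55 against -10.72 for Slc4a1). Car2, a carbonic anhydrase of red cells, was at 2645, 3770 and 2490 FPKM against 6.73, 5.03, 5.18 and 5.19 FPKM (log2 -8.81). In both genes tumor replicate 1 was above the other tumor libraries and still far below spleen. All 26 tested genes of red cell membrane and late maturation fell, with a median log2 change of -7.10. Of these, 14 passed the filter through spleen alone. The summed level of the list was 10863, 14445 and 11289 FPKM in spleen and 234, 149, 153 and 146 FPKM in tumor. Another carbonic anhydrase, Car1, the Rh-associated glycoprotein Rhag, Hemgn and Cldn13 were among the 12 largest falls of all genes (log2 -8.48, -8.32, -8.78 and -8.70).

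Haemoglobin transcripts fell and were still abundant in tumor libraries. Hba-a1, an alpha globin (chromosome 11, 32283672 to 32284486), was at 216169, 122857 and 268492 FPKM in spleen and at 40541, 6292, 6231 and 5916 FPKM in tumor, a 13.7-fold lower mean (log2 -4.29 ± 0.70, adjusted p = 0.00114). Tumor replicate 1 lay between the groups. Hbb-b1, a beta globin, was at 140826, 111656 and 276986 FPKM against 48280, 7346, 6969 and 7491 FPKM (log2 -3.81 ± 0.72). All 5 tested globin genes fell, with a median of -4.29, or -4.97 without tumor replicate 1. Alpha globins and beta globins exist as near-identical copies, so the split between copies is uncertain. In tumor libraries, globin levels stood beside Gata1 and Klf1 values near 0. Whether these transcripts came from red cells in the sort, from free RNA or from low expression was not tested.

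Haem is made in mitochondria from glycine, and its iron enters through the transferrin receptor. All 18 tested genes for making haem and taking up iron fell, with a median log2 change of -4.40. Of these, 1 had passed the filter through spleen alone. Alas2, the first enzyme of red cell haem synthesis (chromosome X, 150547417 to 150570622), was at 1586, 1108 and 2217 FPKM against 224, 43.4, 42.2 and 39.4 FPKM (log2 -4.61 ± 0.61). Tfrc, which encodes the transferrin receptor CD71 (chromosome 16, 32608896 to 32632794), was at 609, 962 and 550.4 FPKM against 11.7, 18.4, 18.3 and 18.2 FPKM. That is a 42.5-fold lower mean in tumor (log2 -5.30 ± 0.25, adjusted p = 1.78e-06), and tumor replicate 1, with the most globin, had the lowest Tfrc of all. Slc25a37, the mitochondrial iron importer (log2 -5.80), and the synthesis enzyme Cpox (-5.75) fell furthest in the list. In bulk samples fewer cells of a type and less RNA per cell cannot be told apart, here or in the lists that follow.

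Promoters of Epor and Alas2 are shown because both genes are switched on by GATA factors in red cell precursors and both fell with Gata1. Each sequence holds 250 bases before and 50 bases from the annotated RefSeq start on (GRCm38.p6), read 5′ to 3′ on the gene's strand, with matches to AGATAA or its reverse complement TTATCT in capitals. The Epor sequence is chr9:21963527-21963826 on the minus strand, with TTATCT at -54, and the Alas2 sequence is chrX:150547167-150547466 on the plus strand, with TTATCT at -86.
Epor: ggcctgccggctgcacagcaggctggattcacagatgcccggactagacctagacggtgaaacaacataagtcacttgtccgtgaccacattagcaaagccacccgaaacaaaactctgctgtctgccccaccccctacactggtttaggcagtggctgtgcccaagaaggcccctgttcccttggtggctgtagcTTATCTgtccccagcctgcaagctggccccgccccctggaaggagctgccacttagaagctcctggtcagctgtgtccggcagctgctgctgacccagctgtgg
Alas2: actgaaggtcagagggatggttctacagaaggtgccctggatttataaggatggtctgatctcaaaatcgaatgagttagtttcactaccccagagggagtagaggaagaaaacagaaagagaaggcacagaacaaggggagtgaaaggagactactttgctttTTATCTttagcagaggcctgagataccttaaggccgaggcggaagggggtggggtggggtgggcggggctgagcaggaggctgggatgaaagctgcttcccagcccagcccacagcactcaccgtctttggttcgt
The letters AGATAA or TTATCT were present in 4 of 17 erythroid regulators found in the promoter table (23.5%), in 7.66% of 9298 tested genes and in 12.7% of all 27025 genes of the table. Counted by promoter, the shares were 13.3%, 6.37% and 11.2%. For the red cell and haem lists, 17 of 26 and 14 of 18 members were in the table. Their shares cover only that part of each list. The letters were present in 5 of these 17 red cell genes (29.4%) and 3 of these 14 haem genes (21.4%). By promoter the shares were 26.3% and 13.6%. No window of Gata1, Klf1 or Tfrc held AGATAA or TTATCT, and other sequences that GATA factors can bind were not searched.

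**Figure D2:**
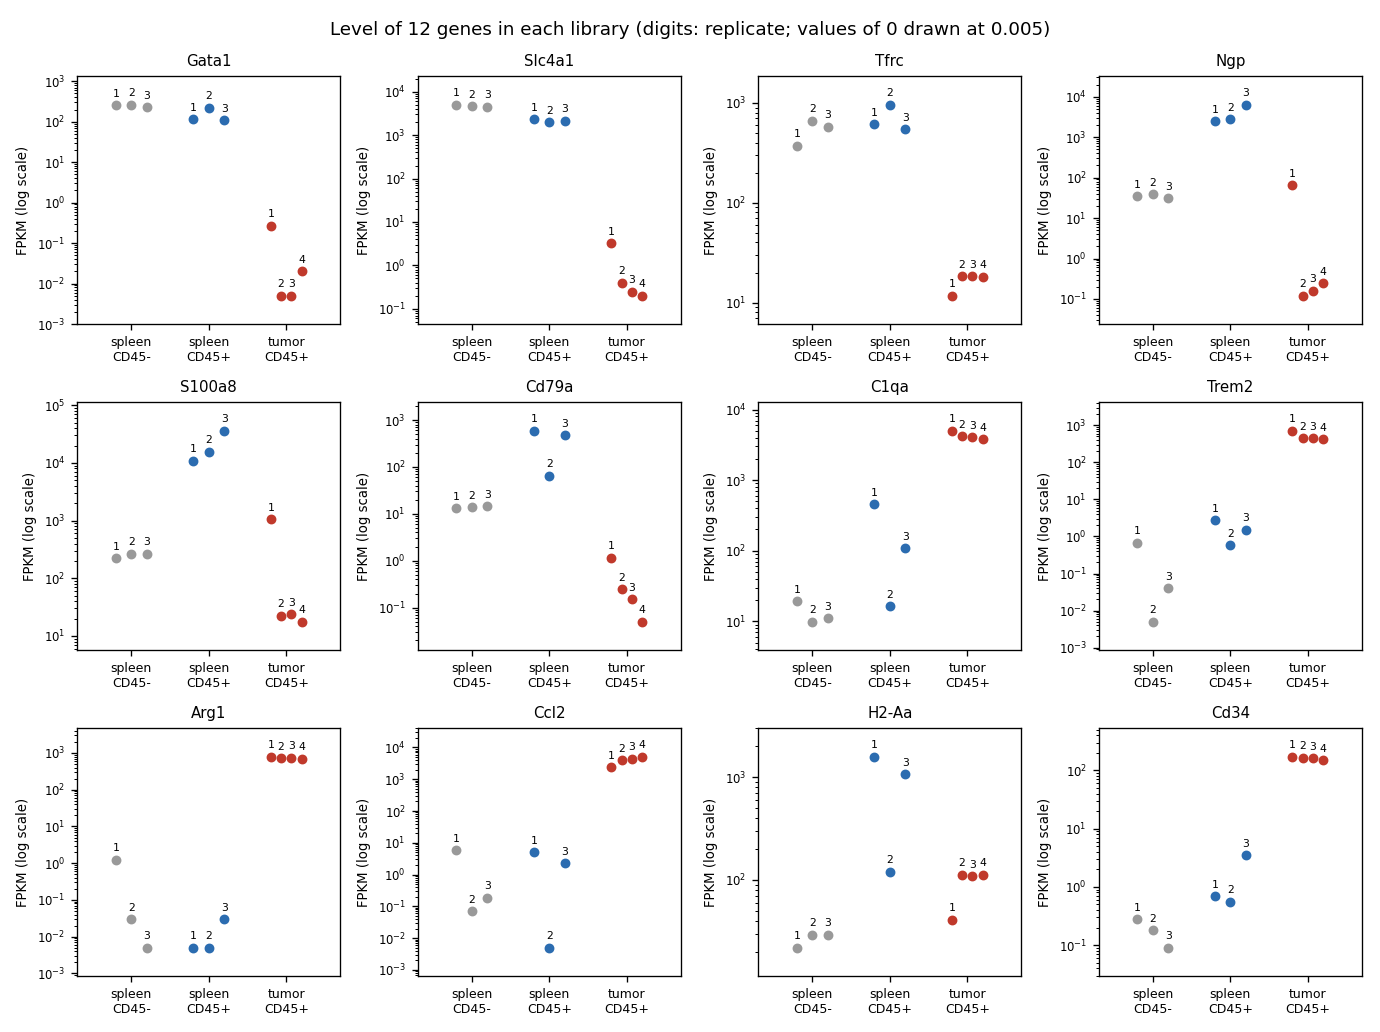
Level of 12 genes in each library, in FPKM on a log axis, with values of 0 drawn at 0.005; digits are replicate numbers, and splenic CD45-negative libraries (grey) stand beside splenic CD45-positive (blue) and tumor CD45-positive libraries (red). Gata1 and Slc4a1 fall to 0.27 and 3.25 FPKM or less in tumor, Arg1 and Ccl2 reach at least 698 and 2408 FPKM, and tumor replicate 1 is the highest tumor library for Ngp and S100a8.

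Neutrophil granule transcripts were the other abundant class that was high in splenic and low in tumor libraries. S100a8, which forms the calcium-binding complex calprotectin of neutrophils with S100a9 (chromosome 3, 90669071 to 90670034), was at 10915, 15675 and 36172 FPKM in spleen and at 1060, 22.5, 23.9 and 17.6 FPKM in tumor (log2 -8.30 ± 1.38, adjusted p = 0.00122). S100a9 was at 7225, 10228 and 25593 FPKM against 495, 16.6, 14.8 and 15.8 FPKM (log2 -8.31 ± 1.23). Tumor replicate 1 was far above the other tumor libraries in both genes and below every splenic library. Ngp, a granule protein of immature neutrophils, was at 2445, 2832 and 6367 FPKM against 65.6, 0.12, 0.16 and 0.25 FPKM (log2 -10.10 ± 1.42, adjusted p = 5.15e-04). Camp, the antimicrobial peptide cathelicidin, and Ltf, lactoferrin, fell by 9.40 and 8.33 on the log2 scale. Of 20 tested granule genes 19 fell and none rose (median log2 -5.78), 3 of them having passed the filter through spleen alone. The exception was Padi4, which modifies histones in neutrophils, at 13.3, 18.7 and 36.7 FPKM against 23.6, 28.8, 28.4 and 27.1 FPKM. Without splenic replicate 3, 1 granule gene was called higher.

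Genes of mature neutrophils did not move together. Of 21 tested, 7 rose and 10 fell (33.3% and 47.6%, beside 37.7% and 26.0% of all tested genes). Their median log2 change was -0.64, and 2 had passed the filter through spleen alone and 1 through tumor alone. The receptors Cxcr2 (log2 -4.41 ± 0.31) and Csf3r (-1.86 ± 0.31) fell, while Cxcl2 (7.14 ± 0.54), Acod1 (5.01 ± 0.28), Clec4d (4.07 ± 0.40) and Clec4e (3.43 ± 0.29), which activated macrophages also make, rose. Cebpe and Gfi1, which encode transcription factors of granulocyte maturation, fell by 3.31 and 1.71 on the log2 scale. Their levels were 14.9, 16.7 and 42.2 FPKM against 1.56, 1.23, 1.28 and 1.23 FPKM for Cebpe, and 2.61, 1.51 and 4.84 FPKM against 0.08, 0.12, 0.22 and 0.19 FPKM for Gfi1.

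Eosinophil, basophil and mast cell genes were also low in tumor. Of 12 tested 11 fell and 1 rose (median log2 -4.03), and 8 had passed the filter through spleen alone and 1 through tumor alone. Prg2, the major basic protein of eosinophils, was at 1056, 43.0 and 277 FPKM against 2.38, 0.06, 0 and 0.06 FPKM (log2 -7.39 ± 0.99). Mcpt8, a basophil protease, was at 37.5, 12.9 and 60.7 FPKM against 0.31, 0.69, 0.81 and 0.77 FPKM (log2 -4.30 ± 0.45). The gene that rose, Tpsb2, a tryptase of mast cells, stayed low at 1.74, 1.35, 1.22 and 0.83 FPKM in tumor against 0, 0 and 0.11 FPKM in spleen.

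Lymphocyte transcripts accompanied the splenic cells. Cd79a, part of the B cell receptor (chromosome 7, 24897497 to 24901858), was at 593, 64.9 and 469 FPKM in spleen and at 1.17, 0.25, 0.15 and 0.05 FPKM in tumor (log2 -7.62 ± 0.72, adjusted p = 6.60e-05). All 16 tested B cell markers fell (median log2 -4.74), 9 of them having passed the filter through spleen alone, and their summed level was 2052, 261 and 3083 FPKM against 13.3, 7.40, 8.46 and 7.62 FPKM. Of 17 tested T and NK cell markers 10 fell and none rose (median -2.13), 5 of the 17 having passed the filter through spleen alone, and 1 rose without splenic replicate 1 or tumor replicate 1. Cd3e, a chain of the T cell receptor complex, was at 17.3, 2.32 and 9.25 FPKM against 0.03, 0.42, 0.66 and 0.27 FPKM (log2 -2.69 ± 0.52). Gzmb, a cytotoxic granule protease, was not called (12.1, 1.57 and 7.64 FPKM against 5.75, 38.4, 36.6 and 35.9 FPKM, log2 1.89, adjusted p = 0.0610). It was called higher without splenic replicate 1 (log2 2.39, adjusted p = 0.0411) and without tumor replicate 1 (2.52, adjusted p = 0.0113). Splenic replicate 2 was the lowest splenic library by summed level for the eosinophil, B cell and T and NK lists, and tumor replicate 1 was the lowest tumor library for the T and NK list and the highest for the others.

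**Figure D3:**
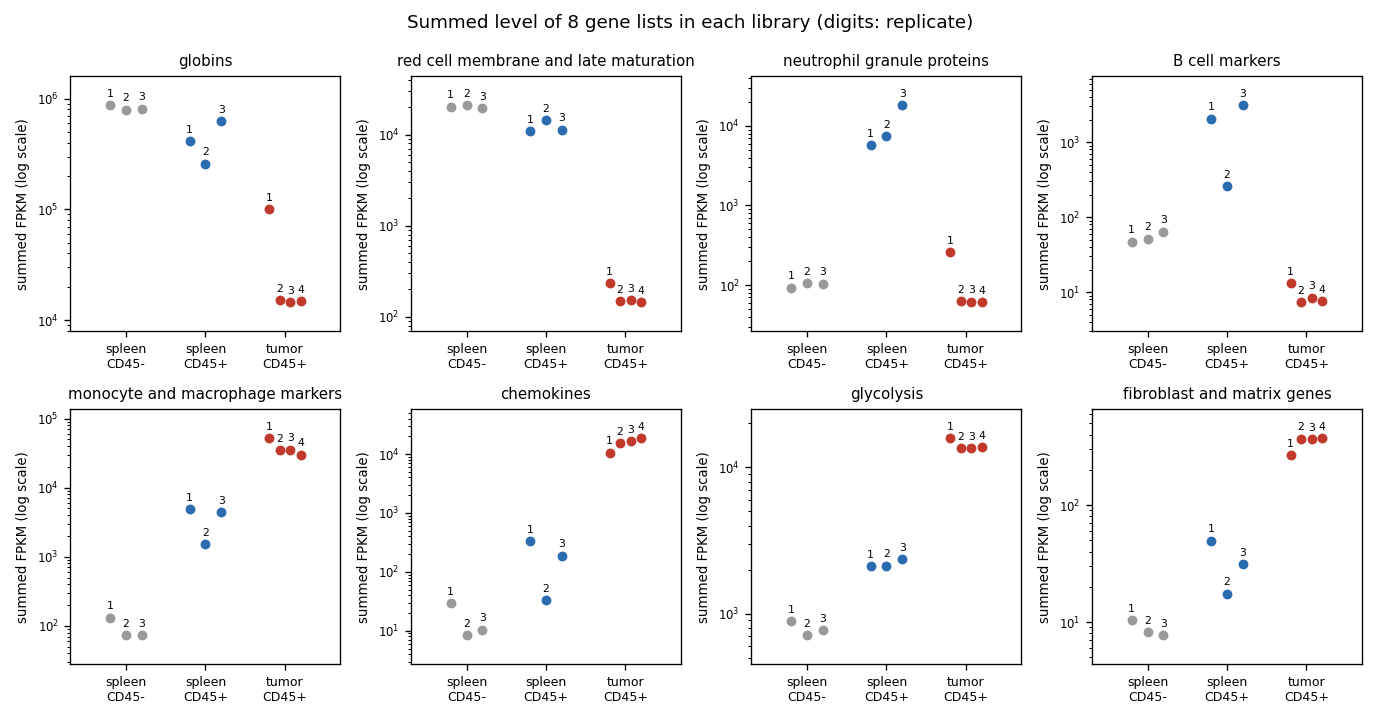
Summed FPKM of 8 gene lists in each library on a log axis, with digits for replicate numbers and the splenic CD45-negative libraries in grey. Red cell, granule and B cell sums are lower in every tumor library (red) than in every splenic CD45-positive library (blue), for example 7.40 to 13.3 against 261 to 3083 FPKM for B cell markers, and macrophage, chemokine, glycolysis and fibroblast sums are higher.

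Macrophage transcripts were abundant in the tumor libraries. Lyz2, the lysozyme of myeloid cells (chromosome 10, 117277541 to 117282272), was at 29160, 14945, 15342 and 11438 FPKM in tumor, highest in replicate 1, against 2514, 1276 and 3302 FPKM in spleen (log2 2.92 ± 0.41, adjusted p = 5.21e-04). C1qa, a chain of complement C1q made by macrophages (chromosome 4, 136895916 to 136898844), was at 5025, 4195, 4101 and 3805 FPKM in tumor and at 461, 16.4 and 108 FPKM in spleen (log2 5.48 ± 0.93, adjusted p = 0.00138). Splenic replicate 1 was the highest splenic library for C1qa and replicate 2 the lowest. Of 22 tested monocyte and macrophage markers 19 rose and 1 fell (median log2 4.11, beside 0.20 for all genes), and none had passed the filter through 1 group alone. Ms4a7 (log2 7.39), the scavenger receptor Msr1 (6.97) and the endotoxin co-receptor Cd14 (5.98) rose most, followed by the C1q genes and the Fc receptors Fcgr2b (5.38) and Fcgr1 (5.33). Adgre1, which encodes a surface antigen by which macrophages are sorted, was at 179, 236, 232 and 227 FPKM against 46.7, 2.27 and 14.1 FPKM (log2 4.04 ± 0.77).

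Csf1r, the receptor for the macrophage growth factor CSF-1, was at 305, 254, 257 and 261 FPKM in tumor against 201, 9.39 and 40.5 FPKM in spleen (log2 2.60 ± 0.84, adjusted p = 0.0265). Its adjusted p was 0.0769 without splenic replicate 3 and 0.0702, 0.0517, 0.0514 and 0.0542 without tumor replicates 1 to 4 in turn. Ly6c2, an antigen of inflammatory monocytes, was the member that fell, at 155, 74.1 and 339 FPKM in spleen against 20.7, 64.3, 70.2 and 63.1 FPKM (log2 -1.65 ± 0.59, adjusted p = 0.0377). That call was lost without splenic replicate 1 (adjusted p = 0.0765) or 3 (0.135), or without tumor replicate 1 (0.0832), 2 (0.0537) or 4 (0.0565). Ccr2, the chemokine receptor that brings monocytes out of the marrow, rose (109, 92.0, 92.4 and 92.4 FPKM against 58.7, 8.74 and 32.7 FPKM, log2 1.85 ± 0.54).

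Genes of lipid handling and of tumor macrophages rose as well, 17 of 20 with none lower (median log2 3.40), of which 4 had passed the filter through tumor alone. Without splenic replicate 2, 1 of them was called lower. Trem2, a lipid-sensing receptor (chromosome 17, 48346401 to 48352276), was at 717, 446, 446 and 429.5 FPKM in tumor against 2.78, 0.58 and 1.52 FPKM in spleen (log2 7.66 ± 0.32, adjusted p = 9.96e-07). Arg1, which encodes arginase (chromosome 10, 24915207 to 24927470), was at 792, 718, 745 and 698 FPKM against 0, 0 and 0.03 FPKM (log2 9.51 ± 0.13, adjusted p = 2.58e-08). Tumor libraries differed little from each other in Arg1, which was close to absent from spleen. Spp1, the secreted phosphoprotein osteopontin, was at 1730, 1549, 1562 and 1689 FPKM against 2.16, 0.42 and 2.71 FPKM (log2 9.32 ± 0.31). Mrc1, the mannose receptor CD206, rose from 72.2, 2.21 and 15.4 to 239, 293, 301 and 302 FPKM. Apoe, which carries lipid out of cells, was not called (282, 15.5 and 76.2 FPKM against 447, 191, 199 and 195 FPKM, log2 1.76, adjusted p = 0.105), and was called without splenic replicate 1 (2.76, adjusted p = 0.00832).

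Red pulp macrophages of the spleen recycle iron from old red cells, and their genes split. Of 13 tested, 2 rose, 4 fell and 7 were not called (median log2 -0.57). The shares were 15.4% higher and 30.8% lower, beside 37.7% and 26.0% of all tested genes. Of those that fell, 2 had passed the filter through spleen alone. Spic, the transcription factor that specifies them, was at 77.9, 2.00 and 22.5 FPKM in spleen and at 0.07, 0.14, 0.07 and 0 FPKM in tumor (log2 -4.05 ± 0.93, adjusted p = 0.00597). Slc40a1, the iron exporter ferroportin, was at 117, 43.9 and 75.5 FPKM against 1.15, 1.61, 1.63 and 1.80 FPKM (log2 -4.87 ± 0.31). Cd5l (-4.41) and Blvrb (-2.94), the latter also a red cell enzyme, fell too. Siglec1 (4.42) and Lrp1 (3.45) rose. Hmox1, which breaks down haem, was at 274 FPKM or more in every tumor library against 237, 11.8 and 103 FPKM. All tumor libraries were above all splenic ones, with an adjusted p of 0.0626, and Hmox1 was called without splenic replicate 1 (log2 2.99, adjusted p = 0.00990) or 2 (0.88, adjusted p = 0.0264). Without splenic replicate 1, 4 genes of the list rose.

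Lysosomal enzymes rose with 1 exception. Of 24 tested genes 23 rose and Ctsf fell (median log2 2.90), with 1 having passed the filter through tumor alone. Ctsl, a protease of the lysosome, was at 1371, 1833, 1881 and 1921 FPKM in tumor against 26.4, 27.5 and 16.4 FPKM in spleen (log2 6.19 ± 0.22, adjusted p = 5.38e-07). Lgmn, the asparagine endopeptidase legumain (log2 5.53), and Grn, progranulin (4.40), also rose. Ctsb and Ctsd, the major cathepsins, were 4.77-fold and 5.68-fold higher by mean (log2 2.41 ± 0.36 and 2.53 ± 0.19). Complement genes rose in 11 of 16 cases and fell in 3 (median 3.30), 2 having passed the filter through tumor alone and 1 through spleen alone. C3ar1, the receptor for the C3a fragment, was at 159.8, 177, 179.7 and 170.5 FPKM against 0.58, 0.05 and 0.11 FPKM (log2 7.14 ± 0.18). C4b (6.52) and Cfb (5.61) rose, whereas C3 itself fell (40.2, 33.5 and 69.9 FPKM in spleen against 8.52, 19.3, 19.9 and 22.1 FPKM, log2 -1.41 ± 0.37, adjusted p = 0.0109). Cd55, which shields cells from complement, and C5ar2 fell by 4.23 and 1.51.

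Chemokines rose steeply. Of 20 tested 17 rose and none fell (median log2 5.91), of which 6 had passed the filter through tumor alone. Ccl2, the ligand of CCR2 that draws monocytes (chromosome 11, 82035577 to 82037452), was at 2408, 4012, 4459 and 5130 FPKM in tumor against 5.07, 0 and 2.31 FPKM in spleen (log2 10.47 ± 0.57, adjusted p = 3.76e-06). Ccl7 (82045712 to 82047525), Ccl12 (82101845 to 82103399) and Ccl8 (82115185 to 82116799) are its neighbours on chromosome 11 and ligands of overlapping receptors. Ccl7 was at 1762, 3039, 3456 and 4137 FPKM against 0.07, 0 and 0.07 FPKM, the largest rise of all tested genes (log2 11.47 ± 0.28). Ccl12 was at 2443, 2699, 2958 and 3177 FPKM against 0.59, 0 and 0 FPKM (log2 11.23 ± 0.21), and Ccl8 was at 207, 554, 616 and 605 FPKM against 0.33, 0 and 0 FPKM (8.70 ± 0.39). In all of them tumor replicate 1 was the lowest tumor library and was still far above spleen.

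Ligands of CXCR2, which attract neutrophils, rose in the same tumor libraries in which granule transcripts were low. Cxcl1 was at 298, 708, 733 and 843 FPKM in tumor against 0.34, 0 and 0.05 FPKM in spleen (log2 9.07 ± 0.36), and Cxcl2 at 578, 1012, 1013 and 1106 FPKM against 12.8, 1.49 and 6.60 FPKM. Cxcl16 (7.28), Ccl4 (6.48), the interferon-induced Cxcl10 (6.05) and Ccl3 (4.94 ± 0.87) rose too. Ccl22 and Ccl24 were among the 3 that were not called (log2 0.03 and 0.55). Without splenic replicate 2, 1 chemokine was called lower.

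Cytokines rose in 13 of 16 tested cases and fell in none (median log2 2.89), with 4 having passed the filter through tumor alone. Tnf (chromosome 17, 35199367 to 35202007) was at 69.5, 220.0, 229 and 221 FPKM in tumor against 4.52, 1.76 and 7.08 FPKM in spleen (log2 5.08 ± 0.52, adjusted p = 9.28e-05). Il10, a brake on inflammation, was at 5.14, 24.4, 28.2 and 29.6 FPKM against 0.76, 0.04 and 2.05 FPKM (log2 3.44 ± 0.62). Il1b was at 165, 415, 483 and 569 FPKM against 101, 9.39 and 88.5 FPKM (log2 3.03 ± 0.82, adjusted p = 0.0126), and its adjusted p was 0.0925 with tumor replicates 2 to 4 averaged as 1. Tumor replicate 1 was the lowest tumor library in all 3 genes. Tnfsf9 (6.13), the interleukin-1 antagonist Il1rn (5.20), Il1a (5.01) and Csf1 (3.63) rose as well.

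Genes listed as immunosuppressive enzymes and factors rose in 14 of 18 tested cases and fell in 1 (median log2 1.96), with 3 having passed the filter through tumor alone. Lgals1, galectin-1, had one of the higher levels, at 7690, 5144, 5000 and 4178 FPKM in tumor against 96.2, 23.2 and 119 FPKM in spleen (log2 6.35 ± 0.53). Ptgs2, the inducible cyclooxygenase, was at 22.8, 82.7, 82.2 and 86.9 FPKM against 3.06, 0.11 and 3.53 FPKM (log2 4.50 ± 0.63), and Nos2, the inducible nitric oxide synthase, at 5.51, 6.65, 6.62 and 6.02 FPKM against 0.03, 0.02 and 0.03 FPKM (2.81 ± 0.12). Tgfb1 was higher (log2 1.18 ± 0.36, adjusted p = 0.0209), a call lost without splenic replicate 3 (adjusted p = 0.0696) or tumor replicate 1 (0.0584). Arg2, the second arginase gene, did not follow Arg1 (4.37, 2.15 and 7.69 FPKM in spleen against 2.64, 2.33, 2.75 and 2.22 FPKM, adjusted p = 0.124). It was called lower without splenic replicate 2 (log2 -0.97, adjusted p = 0.00281), which made 2 members of the list that fell.

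The gene that fell in this list was Artn, the neurotrophic factor artemin (chromosome 4, 117925908 to 117930795), at 3.50, 4.29 and 3.36 FPKM in spleen against 1.54, 2.08, 1.99 and 2.37 FPKM in tumor. The groups did not overlap (log2 -0.66 ± 0.15, adjusted p = 0.00539), and the adjusted p was 0.104 with a common sum over all genes and 0.0506 with tumor replicates 2 to 4 averaged as 1. Cybb, the membrane subunit of the phagocyte oxidase that makes reactive oxygen, was at 129, 56.9 and 128 FPKM in spleen against 80.6, 112, 111 and 111 FPKM in tumor (log2 0.06 ± 0.31, adjusted p = 0.865). The groups overlapped.

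Among immune checkpoint genes 9 of 16 rose and Cd47 fell (median log2 1.73, with 1 having passed the filter through tumor alone). Without splenic replicate 2, 5 of them fell. Lilrb4a, an inhibitory receptor of myeloid cells (log2 3.69), Havcr2, which encodes TIM-3 (3.22), and Pvr (2.47) rose most. Cd274, which encodes the ligand PD-L1, was at 15.9, 0.74 and 6.49 FPKM in spleen against 10.3, 19.3, 20.5 and 20.9 FPKM in tumor. Its groups overlapped (log2 1.59 ± 0.69, adjusted p = 0.0769), and it was called without splenic replicate 1 (2.33, adjusted p = 0.0108). Vsir, the checkpoint VISTA, was not called (77.5, 46.9 and 73.0 FPKM against 61.3, 58.5, 58.5 and 55.2 FPKM, adjusted p = 0.560), and was lower without splenic replicate 2 (log2 -0.36, adjusted p = 0.0102). Cd47, the signal against phagocytosis that red cells and most other cells carry, was at 207, 269 and 270.3 FPKM against 110.0, 116, 109.7 and 123 FPKM (log2 -1.10 ± 0.15).

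Receptors for growth factors and chemokines gave calls in both directions. Of 15 tested 8 rose and 5 fell (53.3% and 33.3%, beside 37.7% and 26.0% of all tested genes, median log2 1.37). Of those that fell, 3, Cxcr2 among them, had passed the filter through spleen alone. With tumor replicates 2 to 4 averaged as 1, 5 rose. Ccr1, a receptor for CCL3, rose from 19.6, 10.8 and 41.8 to 240.1, 192, 193 and 181 FPKM (3.21 ± 0.39). The lymphocyte receptors Cxcr5 (-3.85) and Ccr7 (-3.01 ± 0.64) fell, as did Cxcr2 and Csf3r. Cxcr4 was not called (log2 -0.53, adjusted p = 0.113) and was lower with trimmed-mean scaling (-0.74, adjusted p = 0.0282) and without splenic replicate 2 (-0.83, adjusted p = 0.00357). Toll-like receptors and inflammasome genes rose in 13 of 20 cases and fell in none (median 2.01), or in 7 with tumor replicates 2 to 4 averaged as 1. Without splenic replicate 2, 1 of them fell. Tlr2, a sensor of bacterial lipoproteins, was at 83.6, 91.5, 94.8 and 91.1 FPKM in tumor against 10.7, 2.12 and 8.19 FPKM (log2 3.71 ± 0.41), and Nlrp3, the core of an inflammasome, at 15.9, 48.0, 50.3 and 49.9 FPKM against 5.71, 0.71 and 2.64 FPKM (3.47 ± 0.55).

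Genes of class I antigen presentation, which shows peptides from inside the cell, were mostly higher in tumor, and those of class II, which shows peptides from engulfed material, mostly lower. Of 18 tested class I genes 15 rose and none fell (median log2 1.82), or 7 with tumor replicates 2 to 4 averaged as 1. B2m, the light chain of class I molecules (chromosome 2, 122147687 to 122153082), was at 4253, 5675, 5965 and 7065 FPKM in tumor against 1654, 441 and 1439 FPKM in spleen (log2 2.47 ± 0.45, adjusted p = 0.00194). The heavy chains H2-D1 (2.43) and H2-K1 (2.36) and the immunoproteasome subunit Psmb10 (2.49) rose with it. Tap1, a peptide transporter subunit, rose by less (1.51 ± 0.46, adjusted p = 0.0218), with an adjusted p of 0.0525, 0.0532 and 0.0509 without tumor replicate 2, 3 or 4.

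Of 12 tested class II genes 8 fell and 2 rose (median log2 -2.68), 2 having passed the filter through spleen alone. Without splenic replicate 1, splenic replicate 3 or tumor replicate 1, and with tumor replicates 2 to 4 averaged as 1, 4 fell. H2-Aa, a chain of the class II molecule (chromosome 17, 34282744 to 34287823), was at 1581, 119.7 and 1062 FPKM in spleen against 40.8, 112, 108 and 112 FPKM in tumor (log2 -2.75 ± 0.85, adjusted p = 0.0224). Splenic replicate 2 was closest to the highest tumor library. Without splenic replicate 1, splenic replicate 3 or tumor replicate 1 the adjusted p of H2-Aa was 0.0736, 0.0882 and 0.0680. Cd74, the invariant chain, overlapped between the groups (2948, 229 and 1902 FPKM against 108, 279, 295 and 261 FPKM, adjusted p = 0.0417), and its adjusted p ranged from 0.0613 to 0.142 when any library other than splenic replicate 2 was left out. Ciita, the switch that turns class II genes on, fell from 36.8, 3.10 and 17.3 to 0.18, 0.40, 0.46 and 0.47 FPKM (log2 -3.37 ± 0.65). B cells, whose markers moved with these genes, also express class II, and their part in the result was not tested. The members that rose were Ctss (4.20 ± 0.75) and Ifi30 (1.65 ± 0.51), lysosomal enzymes that process antigen.

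Genes induced by type I interferon rose in 14 of 25 cases and fell in 2 (median log2 1.97). With tumor replicates 2 to 4 averaged as 1, 9 rose. Ifit3 was at 99.3, 196, 199 and 201 FPKM in tumor against 17.4, 1.11 and 10.8 FPKM in spleen (log2 4.44 ± 0.69, adjusted p = 8.92e-04), and Irf7, an interferon regulatory factor, at 215, 399, 402 and 394 FPKM against 88.5, 26.1 and 78.6 FPKM (2.56 ± 0.44). Tumor replicate 1 had the lowest tumor value of both. The members that fell were Rsad2 (-1.59) and Irf9 (-0.57). Neither of these falls was called when splenic replicate 1 or 3, or any tumor library, was left out, and 4 genes fell without splenic replicate 2. Isg15 overlapped between the groups (677, 143 and 538 FPKM in spleen against 191, 343, 385 and 397 FPKM, adjusted p = 0.712) and was called lower without splenic replicate 2 (log2 -0.93, adjusted p = 0.0244).

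Glycolysis and the hypoxia response rose together in tumor libraries. Of 20 tested glycolysis genes 17 rose and 2 fell (median log2 2.59, with 1 having passed the filter through tumor alone). Of 20 hypoxia genes 18 rose and 1 fell (median 2.69, with 4 having passed the filter through tumor alone). Ldha, which makes lactate (chromosome 7, 46842274 to 46855627), was at 1467, 1145, 1125 and 1037 FPKM in tumor against 155, 144 and 154 FPKM in spleen (log2 2.96 ± 0.16, adjusted p = 3.76e-06). Slc2a1, the glucose transporter GLUT1 (chromosome 4, 119108745 to 119137330), was at 148, 154, 153 and 146 FPKM against 11.8, 2.24 and 8.81 FPKM (log2 4.35 ± 0.43). Tpi1 (3.61), Pgam1 (3.33), Aldoa (3.28), Pkm (3.12 ± 0.34), Pgk1 (2.98) and Gapdh (2.69) rose by similar amounts, and Hk2 by less (1.67 ± 0.26). The summed level of the glycolysis list was 15747, 13523, 13566 and 13744 FPKM in tumor against 2115, 2123 and 2368 FPKM.

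The members that fell were Slc2a3, a glucose transporter (25.9, 22 and 35.2 FPKM in spleen against 3.02, 3.47, 3.49 and 2.74 FPKM, log2 -2.76), and Hk1, the hexokinase of red cells (120.5, 193 and 80.9 FPKM against 26.3, 33.1, 34.8 and 33.7 FPKM, log2 -1.93). Bnip3, a mitophagy receptor (chromosome 7, 138890836 to 138909506), was at 186, 161, 165 and 165 FPKM in tumor against 6.03, 1.49 and 5.22 FPKM in spleen (log2 5.15 ± 0.34, adjusted p = 9.87e-06). Hilpda, a lipid droplet protein (4.77 ± 0.32), Ndrg1 (4.64 ± 0.32) and Car9, the carbonic anhydrase used as a marker of hypoxia (4.41 ± 0.18), rose by similar amounts. Vegfa, the growth factor of blood vessels, was at 23.6, 39.1, 41.1 and 40.8 FPKM against 1.37, 1.15 and 2.50 FPKM (log2 3.80 ± 0.26). Mxi1 was the hypoxia gene that fell (-0.92).

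The promoters of Bnip3 and Slc2a1 are shown because hypoxia-inducible factors act through the core letters ACGTG, and both genes rose. Windows and reading direction are as above, with ACGTG or its reverse complement CACGT in capitals. The Bnip3 sequence is chr7:138909457-138909756 on the minus strand and holds CACGTG, which contains both forms and is also an E-box sequence. The Slc2a1 sequence is chr4:119108495-119108794 on the plus strand, with ACGTG at -36.
Bnip3: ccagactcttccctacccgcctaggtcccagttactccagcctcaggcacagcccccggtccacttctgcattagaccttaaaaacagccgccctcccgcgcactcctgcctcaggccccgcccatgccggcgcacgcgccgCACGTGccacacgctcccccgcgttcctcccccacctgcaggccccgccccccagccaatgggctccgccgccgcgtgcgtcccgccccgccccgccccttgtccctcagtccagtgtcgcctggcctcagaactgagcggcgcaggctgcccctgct
Slc2a1: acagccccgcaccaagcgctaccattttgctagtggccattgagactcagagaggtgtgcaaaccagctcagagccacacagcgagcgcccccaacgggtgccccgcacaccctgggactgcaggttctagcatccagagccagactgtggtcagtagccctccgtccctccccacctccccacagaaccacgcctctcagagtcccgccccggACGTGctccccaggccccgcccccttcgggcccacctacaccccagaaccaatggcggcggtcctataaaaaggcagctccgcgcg
ACGTG or CACGT was present in at least 1 promoter of 14 of 19 glycolysis genes in the table (73.7%) and 14 of 17 hypoxia genes (82.4%), in 29.7% of 9298 tested genes and in 21.8% of all 27025 genes of the table. Counted by promoter, the shares were 54.8%, 62.5%, 25.6% and 19.6%. A match describes letters in the window and not binding.

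**Figure D4:**
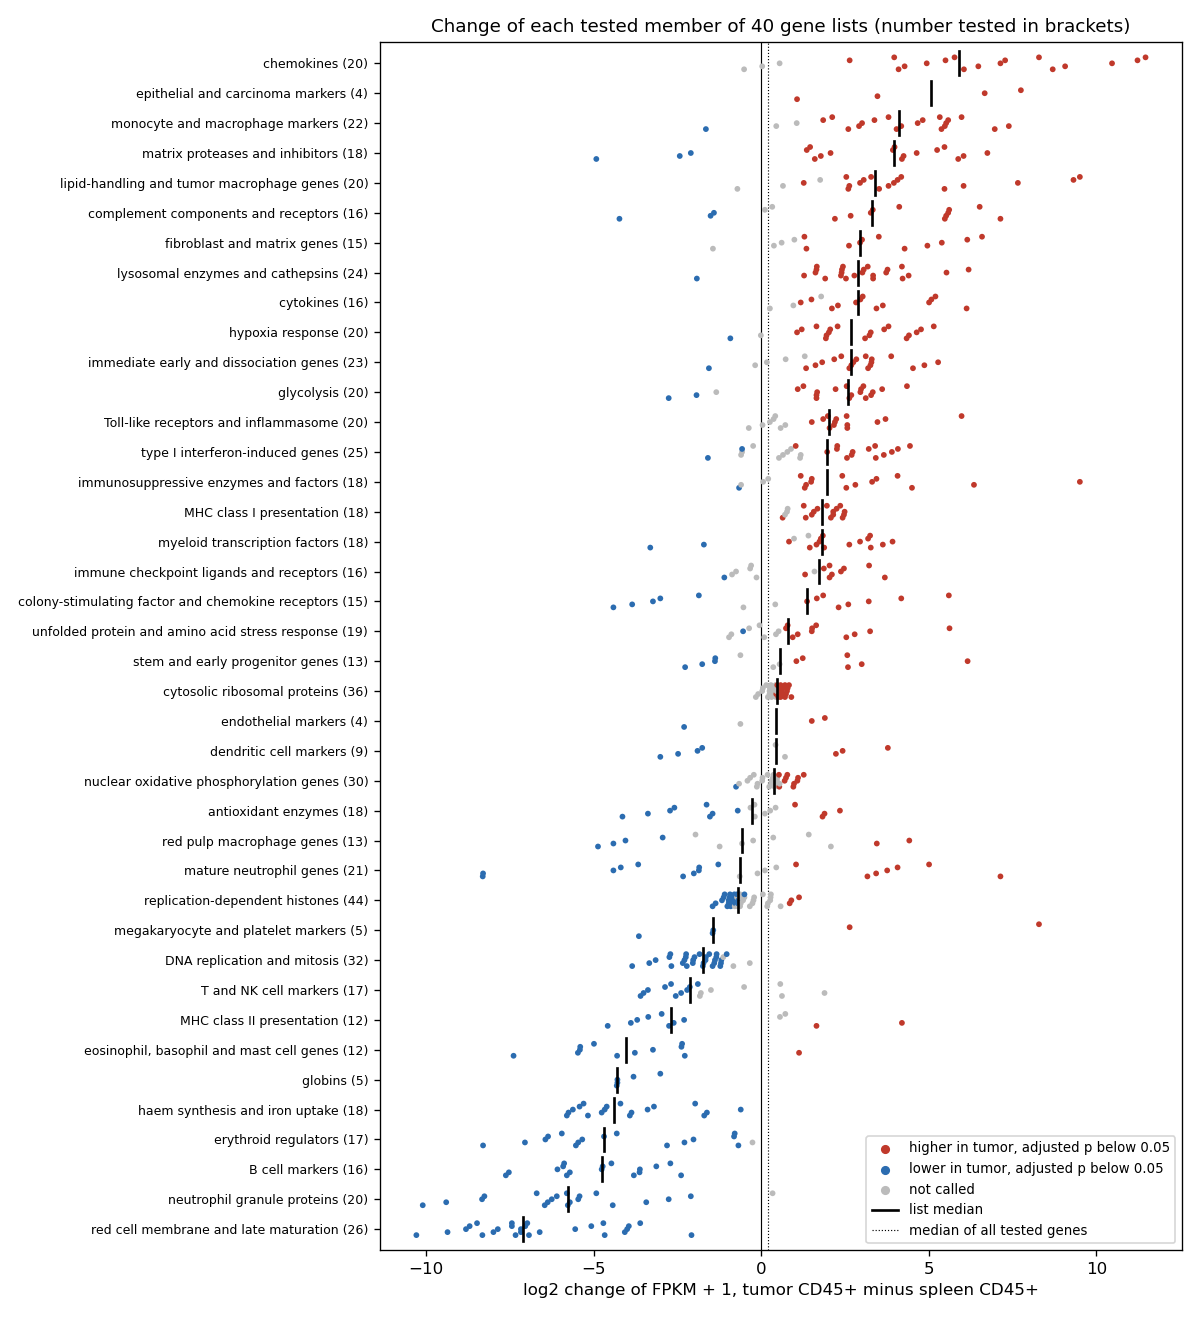
Log2 change (tumor minus spleen, of FPKM + 1) of each tested member of 40 gene lists, ordered by the list median (black bar); red and blue points were called higher and lower, grey points were not called, and the dotted line is the median of all tested genes (0.20). Chemokines have a median of 5.91, the highest at these settings, and red cell membrane genes the lowest, -7.10, while ribosomal protein genes lie close to the dotted line.

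Immediate early genes, which respond to many stimuli and to the handling of tissue, rose in 18 of 23 cases and fell in 1 (median log2 2.69). Of the 23, 1 had passed the filter through tumor alone. With tumor replicates 2 to 4 averaged as 1, 5 rose. Fos was at 598, 838, 841 and 785 FPKM in tumor against 195, 14.9 and 146 FPKM in spleen (log2 3.30 ± 0.79, adjusted p = 0.00710). Egr1 was at 50.6, 157, 159 and 143 FPKM against 34.1, 1.33 and 29.0 FPKM (3.12 ± 0.94, adjusted p = 0.0198), and Hspa1a, an inducible heat shock protein, at 96.7, 259, 266 and 279.7 FPKM against 34.8, 0.14 and 2.84 FPKM (5.28 ± 1.05). Splenic replicate 2 was lowest in all 3 genes. Btg2 fell (-1.56 ± 0.30), and 2 members fell without splenic replicate 2. Whether dissociation of the tumor moved these genes was not tested, since tissue and its preparation cannot be told apart here.

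Stress of protein folding and amino acid supply showed smaller shifts, with 11 of 19 tested genes higher and 1 lower (median log2 0.79, beside 0.20 for all genes). Trib3 was at 12.2, 12.4, 12.4 and 10.7 FPKM in tumor against 1.28, 0.70 and 0.68 FPKM (log2 2.79 ± 0.16), Atf3 rose by 5.62 ± 0.96 and Atf5 by 2.54 ± 0.20. Ddit3, which encodes CHOP, rose by 0.74 ± 0.19 (adjusted p = 0.00895), with 0.28 and an adjusted p of 0.252 when globins were left out of a common sum. With that scaling 8 members rose and 5 fell (median 0.32). Sesn2 was the member that fell, 3 fell without splenic replicate 2, 2 without splenic replicate 3, and none without tumor replicate 1, 3 or 4.

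Cell division genes fell. Of 32 tested genes of DNA replication and mitosis 29 fell and none rose (median log2 -1.73). Mki67, the proliferation antigen (chromosome 7, 135689784 to 135716450), was at 309, 563 and 318 FPKM in spleen against 18.8, 26.2, 26.9 and 32.2 FPKM in tumor, a 15.3-fold lower mean (log2 -3.85 ± 0.27, adjusted p = 1.25e-05). Rrm2 (-3.34), Cdc6 (-3.15) and Kif11 (-2.74) also fell. Mcm5, part of the replicative helicase, was at 83.0, 287 and 81.0 FPKM against 38.8, 43.9, 42.9 and 42.3 FPKM (log2 -1.55 ± 0.42). Splenic replicate 2 was the highest library for both, and for the list sum (3706, 9769 and 4270 FPKM against 1456 to 1470 FPKM). Of 44 replication-dependent histone genes 21 fell and 3 rose, or 7 and 1 with tumor replicates 2 to 4 averaged as 1 and 4 lower in a fit over all 10 libraries. The members that rose were H1f2, H4c9 and H2bc4, and 1 of the 44 genes had passed the filter through spleen alone. With globins left out of a common sum none rose and 28 fell. Most messages of these genes lack a poly(A) tail, and the sources used here do not say how RNA was selected.

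Housekeeping lists moved little and depended on the scaling and on single libraries. Of 36 cytosolic ribosomal protein genes 18 rose and none fell (median log2 0.46). With trimmed-mean scaling 2 rose (median 0.25), and with globins left out of a common sum 1 rose and 3 fell (median -0.01). Tumor replicates 2 to 4 averaged as 1 gave 2 that rose. Leaving out splenic replicate 2 gave 30, and leaving out splenic replicate 1 or 3, or tumor replicate 1, 2 or 4, gave 9 to 11. Of 30 nuclear genes of oxidative phosphorylation 10 rose (33.3%, where 37.7% of all genes rose) and 1 fell (median 0.39). With globins left out of a common sum 5 rose and 7 fell (median -0.08), and with tumor replicates 2 to 4 averaged as 1, 5 rose and none fell. Without splenic replicate 2, 23 of these rose, and 6 rose without splenic replicate 1 or 3. Ndufs1, the member that fell, was not called when any single tumor library was left out.

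Antioxidant enzymes split, with 4 of 18 higher and 8 lower (22.2% and 44.4%, beside 37.7% and 26.0% of all tested genes). Their median log2 change was -0.26, and 0.00 with a common sum over all genes. Prdx2, abundant in red cells, was at 1569, 1859 and 1363 FPKM in spleen against 180.0, 151, 154 and 126 FPKM in tumor (log2 -3.38 ± 0.18), and Gclm, a subunit of the enzyme that makes the glutathione precursor, fell by 4.14. Catalase, encoded by Cat, fell as well (-1.63 ± 0.33). Prdx1 rose (167, 175 and 161 FPKM against 965, 821, 817 and 836 FPKM, log2 2.35 ± 0.14).

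Early progenitor genes gave no single direction. Of 13 tested 6 rose and 4 fell (46.2% and 30.8%, beside 37.7% and 26.0% of all tested genes). Their median log2 change was 0.55, and 3 had passed the filter through tumor alone and 3 through spleen alone. Cd34, a surface glycoprotein of blood progenitors and also of vessels and stroma (chromosome 1, 194938821 to 194961292), was at 172, 165, 164 and 151 FPKM in tumor against 0.70, 0.56 and 3.53 FPKM in spleen (log2 6.16 ± 0.36, adjusted p = 4.87e-06). Kit, the stem cell factor receptor, went the other way, at 2.17, 1.49 and 2.67 FPKM against 0.09, 0.15, 0.23 and 0.31 FPKM (log2 -1.37 ± 0.15). Flt3 (-1.76), Mllt3 (-2.27) and Erg (-1.38) fell, and Procr (2.59), Sox4 (2.57), Ly6a (3.00, adjusted p = 0.0470), Hoxa9 (1.24) and Hoxa7 (1.05) rose.

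Transcription factors of the myeloid lineage rose in 14 of 18 cases and fell in 2 (median log2 1.81), with 1 having passed the filter through spleen alone. They rose in 9 cases with tumor replicates 2 to 4 averaged as 1, and in 9 with globins left out of a common sum. Spi1, which encodes PU.1, was between 243 and 266 FPKM in the 4 tumor libraries against 99.0, 33.5 and 92.9 FPKM in spleen (log2 1.88 ± 0.36, adjusted p = 0.00233). Cebpb was at 341, 241, 264 and 214 FPKM against 55.7, 9.63 and 33.9 FPKM (3.25 ± 0.52). Maf, a factor of macrophage maturation, rose by 3.63 ± 0.56.

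Some markers of carcinoma and stroma were higher in the tumor libraries. Krt8 and Krt18, keratins of simple epithelia, were at 239, 208, 214 and 215 FPKM and at 164, 105, 102 and 95.4 FPKM in tumor, against at most 0.05 and 0.27 FPKM in spleen (log2 7.75 ± 0.13 and 6.67 ± 0.22). Krt14 and Epcam were below the filter, Epcam at 1.18, 0.14 and 2.08 FPKM in spleen against 0.02, 0.02, 0.02 and 0.04 FPKM in tumor. The other keratins of the list, Krt5, Krt6a, Krt17 and Krt19, did not exceed 0.10 FPKM in any tumor library. All 4 tested epithelial genes of 16 rose, each having passed the filter through tumor alone. Without the filter 5 of 16 rose and 4 fell (median log2 0.02). Of 15 fibroblast and matrix genes 11 rose and none fell (median log2 2.95), and all 11 had passed through tumor alone. Without splenic replicate 2, 1 of the list fell. Col3a1, a fibrillar collagen (chromosome 1, 45311538 to 45349706), was at 70.4, 109.8, 108 and 108 FPKM against 0.04, 0.01 and 0.02 FPKM (log2 6.59 ± 0.19), and Col1a1 at 13, 23.7, 23.9 and 23.6 FPKM against 0.15, 0.03 and 0.14 FPKM (4.28 ± 0.23). The part that carcinoma or stromal cells had in other changes was not tested.

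Matrix proteases and their inhibitors rose in 15 of 18 cases and fell in 3 (median log2 3.96), with 8 having passed the filter through tumor alone. Plau, the urokinase, was at 335, 479, 507 and 486 FPKM in tumor against 4.15, 1.74 and 4.08 FPKM in spleen (log2 6.75 ± 0.27), and its receptor Plaur rose by 1.36 ± 0.33. Mmp14 (6.04), Timp1 (5.88), Mmp12 (5.47) and Timp2 (4.25 ± 0.44) rose. The members that fell, Mmp8 (-4.92), Mmp25 (-2.43) and Mmp9 (-2.10 ± 0.34), are stored in neutrophil granules.

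Endothelial genes were low in both groups. Of 10 in the list 4 were tested, of which Kdr and Cdh5 rose, both having passed the filter through tumor alone, and Pecam1 fell. Cdh5, the cadherin of vessel walls, was at 2.85, 2.43, 2.08 and 1.97 FPKM in tumor against 0.18, 0.05 and 0.27 FPKM in spleen. Pecam1, which platelets and leukocytes also carry, was at 36.5, 3.21 and 18.5 FPKM in spleen against 1.27, 2.17, 2.17 and 2.35 FPKM (log2 -2.30 ± 0.65, adjusted p = 0.0153), and its adjusted p was 0.0601 without splenic replicate 3. Without splenic replicate 1, 2 endothelial genes fell. Of 12 platelet genes 5 were tested. Pf4 rose from 1.24, 0.58 and 1.62 to 859, 593, 607 and 609 FPKM (log2 8.29 ± 0.22) and Ppbp by 2.64 ± 0.26, while Itga2b (-1.43 ± 0.22), Itgb3 (-1.45) and Gp9 (-3.65) fell. All 3 of these passed the filter through spleen alone and could be called lower alone. Of 9 dendritic cell markers 3 rose and 4 fell (33.3% and 44.4%, beside 37.7% and 26.0% of all tested genes). Their median was 0.43, or -0.53 without splenic replicate 2. Of the 4 that fell, 3 had passed the filter through spleen alone, and 5 rose without splenic replicate 1, and 1 with tumor replicates 2 to 4 averaged as 1. Itgax, the integrin CD11c, overlapped (31.9, 0.88 and 4.84 FPKM against 4.94, 10.2, 10.8 and 9.79 FPKM), and was called higher without splenic replicate 1 (log2 1.53, adjusted p = 0.0285).

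Several of the largest rises belonged to no list. Pmp22, a myelin and epithelial membrane protein (chromosome 11, 63128982 to 63159547), was at 321, 286, 295 and 274 FPKM in tumor against 0.07, 0.02 and 0.05 FPKM in spleen (log2 8.14 ± 0.13, adjusted p = 5.22e-08). Crabp1, a retinoic acid carrier (chromosome 9, 54764748 to 54773110), was listed at 0 in every splenic library and was at 294, 216, 222 and 209 FPKM in tumor. Folr2, a folate receptor of macrophages (chromosome 7, 101839988 to 101857190), was at 471, 316, 329 and 324 FPKM against 1.46, 0.16 and 0.55 FPKM (7.76 ± 0.28), and the predicted gene Gm52796 (chromosome 5, 144672717 to 144677468) at 257, 489, 532 and 496 FPKM against 0.33, 0.42 and 0.20 FPKM (8.35 ± 0.27). Among the largest falls, Cd24a, a surface antigen of red cell precursors, granulocytes and B cells, was at 2891, 4621 and 3516 FPKM in spleen against 18.8, 3.98, 4.04 and 4.23 FPKM in tumor (log2 -8.98 ± 0.50). Ctse, an aspartic protease, was at 417, 1169 and 605 FPKM against 1.12, 0.55, 0.58 and 0.63 FPKM (-8.61 ± 0.33).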

How the data were processed

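RNA was extracted with TRIZOL and libraries were made at BGI, per the labels' protocols. The authors deposited 1 table per library with a value per RefSeq transcript model. The headers name no unit, and the values were read as FPKM because values times transcript length summed to 953307 to 1137767 per library. Per the submitters' processing notes the build is GRCm38.p6. The sources used here do not give the aligner, the estimator, the annotation or how RNA was selected.

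Deposited FPKM values were summed per gene symbol over 61685 models, of which 1518 without a symbol (0.423 to 1.06% of the summed value) were left out, giving 17603 genes. The 4 tumor and 3 splenic CD45-positive libraries were compared on log2(FPKM + 1) with limma 3.58.1 (R 4.3.3), with a trend in the prior variance. A gene was tested where 3 or more of the 7 libraries reached 1 FPKM, p-values were adjusted by the Benjamini-Hochberg method over all tested genes, and a gene was called below 0.05. The fit was tested on simulated data. Fold changes understate the change of low genes on this scale. Neither counts nor depths were deposited, so no count model was fitted and no counting interval is given.

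The members and the 40 gene lists were chosen with earlier results of these data known, and none of the lists is independent evidence. Hbb-b1 and Hbb-b2 were added to the globins after their values had been seen, and 3 symbols were changed to the spelling in the tables. Genes named are marked key members of the lists, the 12 largest changes in each direction among called genes whose groups did not overlap and whose higher mean was at least 10 FPKM, and, within a list, the called members with the largest change or those of a direction with 5 or fewer. Further members were chosen after their values were seen. Promoter sequences and coordinates are from RefSeq tables of GRCm38.p6. Alternatives were a pseudocount of 0.1, no filter, a filter at 5 FPKM, 4 other scalings, a fit over all 10 libraries, a replicate block, other prior variances and leaving out libraries. Tables were read with pandas 2.3.3 under Python 3.11.15, and plots drawn with matplotlib 3.10.9. A few genes are not reported here.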

Additional observations from a re-analysis of the deposited data

Results flagged for a closer look

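In the 4 tumor libraries, 49 of 101 checked genes had a highest or lowest library whose gap to the nearest other, divided by the whole range of the group, was above the 95% critical value of Dixon's test. For a single group of independent, normally distributed values, chance flags about 1 in 20. The checked genes share the same 4 libraries, so their flags are not independent and their count cannot be set against that rate. The share flagged over all tested genes was not computed. The library was tumor replicate 1 in 48 of the 49 genes, and tumor replicates 2 to 4 correlated with each other at 0.9976 to 0.9986 across genes.

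Tumor replicate 1 was the highest tumor library for 25 genes. For red cell genes its levels were 40541 FPKM (Hba-a1), 48280 (Hbb-b1), 12.6 (Hbb-bt), 3.25 (Slc4a1), 1.16 (Car1), 6.73 (Car2), 224 (Alas2) and 18.8 FPKM (Cd24a). For neutrophil and eosinophil genes they were 1.56 (Cebpe), 2.01 (Mpo), 13 (Ltf), 40.4 (Camp), 65.6 (Ngp), 1060 (S100a8), 495 (S100a9) and 2.38 FPKM (Prg2). For macrophage and other genes they were 305 (Csf1r), 447 (Apoe), 717 (Trem2), 471 (Folr2), 859 (Pf4), 186 (Bnip3), 122 (Plaur), 294 (Crabp1) and 1.12 FPKM (Ctse).

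It was the lowest tumor library for 23 genes. Among immune genes its levels were 179 FPKM (Adgre1), 20.7 (Ly6c2), 239 (Mrc1), 17.7 (Vcam1), 69.5 (Tnf), 207 (Ccl8), 80.6 (Cybb), 22.8 (Ptgs2), 10.3 (Cd274), 15.9 (Nlrp3), 40.8 (H2-Aa), 99.3 (Ifit3), 215 (Irf7) and 5.75 FPKM (Gzmb). Among the rest they were 11.7 (Tfrc), 23.6 (Vegfa), 50.6 (Egr1), 96.7 (Hspa1a), 1.27 (Pecam1), 13 (Col1a1), 70.4 (Col3a1), 16.3 (Mmp9) and 257 FPKM (Gm52796). Trib3 was the exception, lowest at 10.7 FPKM in tumor replicate 4. The share of globin transcripts, 10.5% in tumor replicate 1 against 1.82 to 1.89% in the others, moved with these differences, and its part in them was not tested.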

How the results depend on the processing

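No gene called in the comparison was called in the opposite direction under any setting run. Leaving out 1 library at a time gave 3836 to 4993 higher and 2606 to 3410 lower genes. The number of lower genes moved by more than 1.5 times with a common sum over all genes (1975, against 2986), and the cause was not tested. It also moved by that much with tumor replicates 2 to 4 averaged as 1 (1865, from fewer samples). That setting gave 2904 higher genes, against 4327, and kept 4769 of the 7313 calls. With trimmed-mean scaling 51.3% of calls were higher (3811 against 3619 lower). Among the named genes, Cybb reversed with both splenic replicate 2 and tumor replicate 1 left out (log2 -0.21, adjusted p = 0.0330, against 0.06), and the cause was not tested. Of 117 named genes tested, 103 kept their side of the threshold with tumor replicates 2 to 4 averaged as 1, and 14 lost the call.

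Replicate numbers are shared by the groups, and the labels do not say whether a number marks a shared animal. Deviations of same-numbered libraries from their group means correlated at -0.175, -0.1 and -0.0443. With so few libraries, and a library that stood apart in each group, these values cannot decide whether the numbers pair the samples. A fit with the replicate block gave 3421 higher and 2263 lower genes, and 5675 of the 7313 calls were kept. The number of libraries per group limits the precision, and the depth is known only roughly. Genes below the filter were not tested.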
